A study of Mus musculus with 162 samples.

Results

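T cell lineage genes were followed in the cheek skin of mice treated with MC903 or with its ethanol vehicle. The members were 10 genes taken by symbol after the Ensembl identifiers of the count files had been matched to mouse gene symbols, out of 46078 genes listed in each library: the CD3 chain genes Cd3e, Cd3d and Cd3g, the co-receptor genes Cd4 and Cd8a, the regulatory T cell genes Foxp3 and Ctla4, the co-stimulatory receptor genes Icos and Tnfrsf4, and the transcription factor gene Gata3. All 10 passed the filter on low counts in every comparison. RNA-seq libraries of MC903-treated and ethanol-treated skin were compared within each day, genotype and injection, in 61 skin libraries of the 162 in the series, 31 of MC903 and 30 of ethanol.

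MC903 is calcipotriol, a vitamin D analog that induces an itchy dermatitis resembling atopic dermatitis. Mice received 20 µL of 0.2 mM MC903 in ethanol, or ethanol alone, once a day, and the labels describe adult male C57BL/6 mice. Uninjected wild-type skin was taken at day 1, which is 6 hours after the first application (4 MC903 and 4 ethanol libraries), day 2 (3 and 2), day 5 (3 and 3) and day 8 (5 and 6). The day 8 wild-type libraries form 2 cohorts by the style of their labels, A with 3 MC903 and 3 ethanol libraries and B with 2 and 3. Wild-type mice injected with PBS (2 and 3) or with 250 µg of the anti-Gr1 antibody aGr1 (4 and 4), which is used to deplete neutrophils and was given daily into the peritoneum from the day before the first MC903 application, were sampled at day 8. TSLPR KO mice, which lack the receptor of the epithelial cytokine TSLP through a mutation of Crlf2, were sampled at day 8 (3 and 2) and day 12 (4 and 3). Mice labelled BLT1 KO, for the leukotriene B4 receptor gene Ltb4r1, were sampled at day 8 (3 and 3). The labels do not say that the libraries of a group come from separate animals, so p-values measure the spread between these libraries, part of which may be technical.

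T cells recognise antigen through a receptor whose variable chains, alpha and beta or gamma and delta, are carried to the cell surface by the invariant CD3 chains, so that CD3 transcripts are shared by all T cells. CD4 marks helper and regulatory T cells and CD8 marks cytotoxic T cells, while FOXP3 is the transcription factor that defines regulatory T cells, which restrain the responses of the others. CTLA4, ICOS and OX40 (encoded by Tnfrsf4) are receptors that are induced when T cells are activated, and CTLA4 and ICOS are carried at high levels by regulatory T cells. Mouse epidermis holds a resident population of gamma-delta T cells, the dendritic epidermal T cells, which carry CD3 but usually neither CD4 nor CD8. GATA3 drives type 2 helper T cells and is also made by keratinocytes and by hair follicle cells, so Gata3 in whole skin is not a measure of T cells alone.

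The 3 CD3 genes lie side by side on chromosome 9 of the mouse genome (GRCm38). Cd3g occupies bases 44969572 to 44980431 on the minus strand, Cd3d bases 44981786 to 44987339 on the plus strand and Cd3e bases 44998740 to 45009627 on the minus strand, sharing exon bases with Gm48719 on the opposite strand. Cd3g and Cd3d are read in opposite directions from start sites 1355 bases apart in RefSeq, and the start sites of Cd3d and Cd3e are 27825 bases apart. Their promoters are shown because the 3 genes share one locus and did not move alike in every condition. Each stretch runs 5′ to 3′ on the strand of the gene from 250 bases before the RefSeq start site (build GRCm38.p6), with 30 bases from the start site on. Capitals mark the E-box CAGNTG, matched on either strand, the motif bound by the basic helix-loop-helix factors of lymphocytes among many others.
Cd3g, chr9:44980402-44980681, minus strand: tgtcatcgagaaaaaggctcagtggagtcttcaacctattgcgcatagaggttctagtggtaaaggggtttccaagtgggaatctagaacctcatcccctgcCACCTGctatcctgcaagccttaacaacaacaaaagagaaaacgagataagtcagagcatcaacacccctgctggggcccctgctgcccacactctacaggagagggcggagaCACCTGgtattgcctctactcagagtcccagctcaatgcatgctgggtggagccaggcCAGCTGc
Cd3d, chr9:44981536-44981815, plus strand: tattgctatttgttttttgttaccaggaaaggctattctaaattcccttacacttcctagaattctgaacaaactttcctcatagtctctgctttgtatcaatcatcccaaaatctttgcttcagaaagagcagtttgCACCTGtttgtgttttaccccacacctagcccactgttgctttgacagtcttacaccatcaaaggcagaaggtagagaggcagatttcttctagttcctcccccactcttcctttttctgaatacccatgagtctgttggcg
Cd3e, chr9:45009582-45009861, minus strand: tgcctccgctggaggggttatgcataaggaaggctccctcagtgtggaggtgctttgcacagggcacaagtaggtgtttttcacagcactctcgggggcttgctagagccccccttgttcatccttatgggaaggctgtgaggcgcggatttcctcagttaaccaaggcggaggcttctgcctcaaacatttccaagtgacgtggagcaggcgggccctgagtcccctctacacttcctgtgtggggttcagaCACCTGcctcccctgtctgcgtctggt
The Cd3g stretch holds 3 E-boxes, which begin at positions -148, -35 and 24 from the start site. Those of Cd3d and Cd3e hold 1 each, at positions -112 and 4. Windows of 300 bases were found in RefSeq for 8 of the 10 members, of which 7 held an E-box. Of all 32851 RefSeq promoter windows of that length 51.4% held one. The GATA factor motif with the letters AGATAA was matched in the windows of 2 members and in 11.2% of all windows, and the Runx letters TGTGGT in none and in 16.8%. A core motif of the vitamin D receptor, with the letters AGGTCA or, in its other common spelling, with GGTTCA, was matched in 3 members (Cd3e, Foxp3 and Tnfrsf4) and in 24.8% of all windows. All matches were sought on both strands.

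Skin libraries held 17431296 to 67342879 counts on genes, with a median of 28927563. Cyp24a1, the vitamin D target gene, was higher with MC903 in every condition, by 7.01 to 9.61 on the log2 scale where it passed the test, which was everywhere but wild-type day 2. Crlf2 was at 0.0691 to 0.277 cpm (2 to 8 counts) in the 5 TSLPR KO libraries of day 8 and at 0.405 to 1.34 cpm (18 to 60 counts) in the 7 of day 12, all below the 2.24 to 15.4 cpm of the skin libraries with other labels. Ltb4r1 was still counted in libraries labelled BLT1 KO, at 2.33 to 15.2 cpm, and the deleted part of the gene is not given in the sources used here, so that label could not be checked. Keratinocyte genes summed to at least 2986 cpm in all 61 libraries and moved with MC903, from 5252 to 6948 cpm with ethanol to 11010 to 22320 cpm at wild-type day 8. Their MC903 and ethanol libraries did not overlap there, at day 5 or in PBS, aGr1, BLT1 KO and TSLPR KO day 12 skin, and overlapped at days 1 and 2 and in TSLPR KO skin at day 8. The list of neutrophil genes takes in S100a8 and S100a9. It summed to 181.5 to 200.6 cpm in the aGr1 libraries with MC903 and to 7.17 to 22.1 cpm with ethanol. The sum was thus still high with MC903 after the antibody. It was 71.9 to 376.8 cpm in uninjected wild-type and 301.0 to 399.0 cpm in PBS-injected MC903 skin of day 8. How much of the sum came from neutrophils was not tested. By flow cytometry the study counted fewer neutrophils in MC903 skin of day 8 after aGr1 than in uninjected and PBS-injected mice. Libraries that stand apart were found in several groups. B cell genes, summed over 7 markers, reached 490.2, 211.6 and 28.1 cpm in ethanol replicates 1, 2 and 3 of the aGr1 group, 58.6 cpm in wild-type day 1 ethanol replicate 4, 31.5 cpm in TSLPR KO day 12 ethanol replicate 3 and 24.6 cpm in PBS MC903 replicate 1, against at most 7.01 cpm in the other libraries. Wild-type day 2 MC903 replicate 3 held sensory neuron transcripts, with Scn10a at 252.7 cpm against at most 9.94 cpm in the other skin libraries. The unit cpm scales the counts of a gene so that all genes of a library share the same total, and fewer T cells cannot be told apart from less RNA per T cell in whole skin.

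MC903 moved the members in opposite directions at day 8. With edgeR's quasi-likelihood test and a Benjamini-Hochberg adjusted p under 0.05 over all genes, 6 members rose and 3 fell in uninjected wild-type skin, where 12.2% of all genes tested rose and 11.2% fell. Cd4, Cd8a, Foxp3, Ctla4, Icos and Tnfrsf4 rose, while Cd3e, Cd3g and Gata3 fell. In skin labelled BLT1 KO 4 members rose (14.1% of all genes) and 3 fell (14.6%), and each of these 7 had also passed in uninjected wild-type skin in the same direction. In PBS-injected skin 4 members rose (3.26% of all genes) and 0 fell (0.721%). TSLPR KO skin had 0 members higher (1.30%) and 2 lower (1.14%) at day 8, and 2 higher (5.41%) and 1 lower (4.62%) at day 12. aGr1-injected skin had 0 members higher (15.1%) and 5 lower (17.5%).

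Before day 8, only falls passed the test. At day 1, 2 members fell (7.47% of all genes) and 0 rose (5.51%). At day 5 there were 2 lower (6.78%) and 0 higher (8.15%). At day 2 edgeR called 0 members and 0 of 24580 genes (0.00%), with 1191 genes at an unadjusted p under 0.05, and DESeq2 called 280 genes and 0 members. The median log2 fold change of all genes lay between -0.04 and 0.09 in these 9 comparisons.

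**Figure D1:**
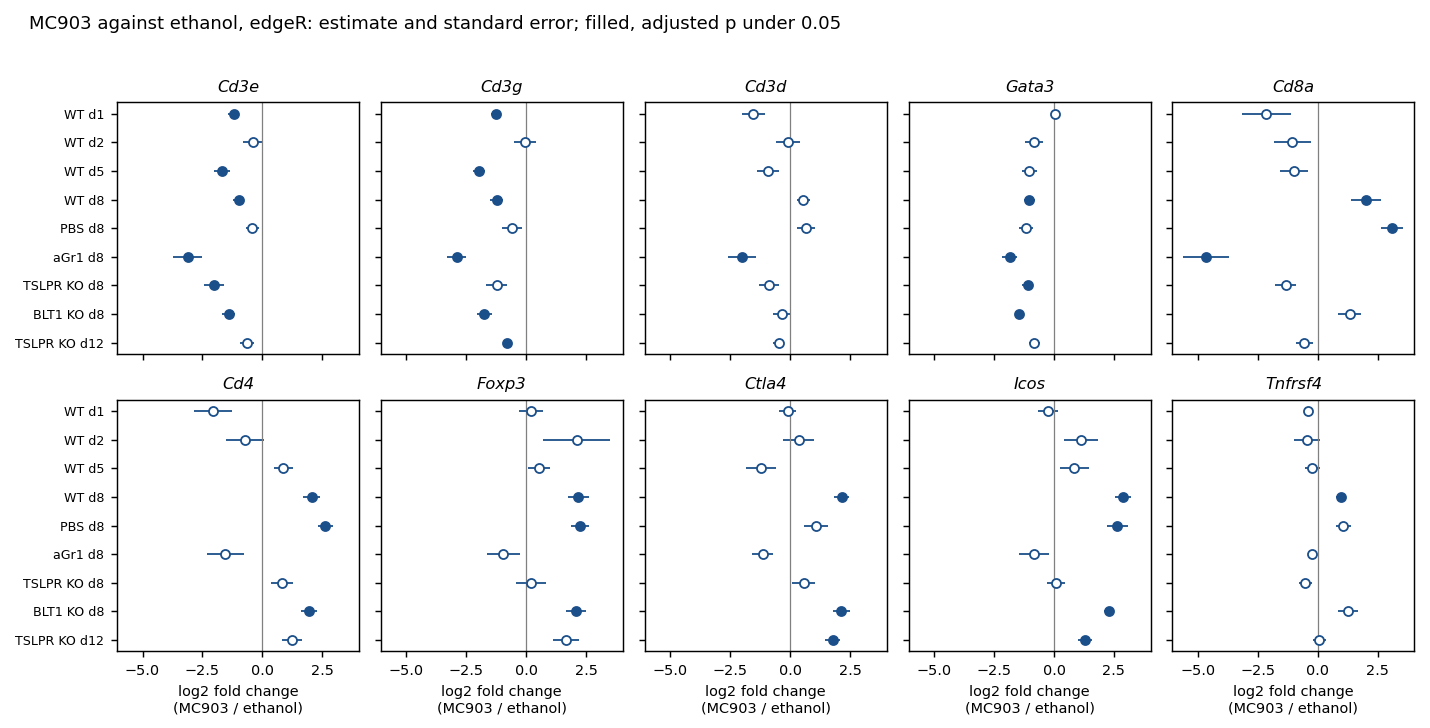
Log2 fold change of each member, MC903 over ethanol, with its standard error, in the 9 conditions from wild-type day 1 (top) to TSLPR KO day 12 (bottom). Filled points passed an adjusted p of 0.05. Cd3e and Cd3g lie left of 0 in every condition, Cd3g only just (-0.06) at wild-type day 2, while Icos lies right of 0 at wild-type day 8 (2.87), PBS day 8 (2.65) and BLT1 KO day 8 (2.30).

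Cd3e and Cd3g encode the epsilon and gamma chains of CD3. Their estimates were below 0 in all 9 conditions, that of Cd3g at day 2 (-0.06) turning to 0.036 with a replicate block, and 1 or both passed the test in 7 conditions. Cd3e at day 1 was at 2.87, 2.46, 2.13 and 3.15 cpm in the 4 MC903 libraries and at 4.32, 5.20, 6.54 and 7.17 cpm in the 4 ethanol libraries. All 4 MC903 libraries thus lay below all 4 ethanol libraries within 6 hours of the first application. The change was -1.20 ± 0.22 (log2 fold change ± SE, adjusted p = 0.00925), and -0.98 without ethanol replicate 4, the library with B cell transcripts (adjusted p = 0.0107). In 1 fit over all 61 skin libraries it missed the threshold (-1.21, adjusted p = 0.0547). Cd3g at day 1 was at 3.67, 3.25, 2.70 and 4.72 cpm with MC903 and at 5.98, 10.1, 7.31 and 9.34 cpm with ethanol, again without overlap (-1.25 ± 0.21, adjusted p = 0.00689, and -1.09 without ethanol replicate 4, adjusted p = 0.0117). All MC903 libraries lay below all ethanol libraries for 3 members, the CD3 chains, against 5.35% of all genes, and above for 0, against 7.48%.

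At day 5 Cd3g was at 2.51, 1.72 and 2.75 cpm with MC903 and at 8.74, 9.03 and 7.70 cpm with ethanol. The groups were far apart, and the fall of 1.98 ± 0.25 on the log2 scale (adjusted p = 0.00249) was the steepest of Cd3g in uninjected wild-type skin. Cd3e was at 2.11, 1.55 and 1.83 cpm with MC903 and at 6.80, 8.11 and 2.64 cpm with ethanol. The third ethanol library came close to the MC903 group without reaching it. The change of Cd3e was -1.70 ± 0.33 (adjusted p = 0.0145), and it missed the threshold without ethanol replicate 1, ethanol replicate 2 or MC903 replicate 2, with adjusted p up to 0.0632.

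At day 8 Cd3e was at 1.51, 3.49, 1.44, 2.22 and 3.19 cpm in the 5 MC903 libraries of wild-type skin and at 3.76 to 6.68 cpm (median 4.64) in the 6 ethanol libraries. The means were 2.37 ± 0.944 (SD, n = 5) and 4.87 ± 1.06 cpm (SD, n = 6), and the groups did not overlap. Cd3e fell by 0.99 ± 0.24 on the log2 scale (adjusted p = 0.00927), by 1.06 in cohort A (adjusted p = 0.0790) and by 0.93 in cohort B (adjusted p = 0.0804), each cohort alone missing the threshold. Cd3g was at 2.90, 4.96, 1.64, 2.46 and 3.13 cpm with MC903 and at 4.21 to 10.03 cpm (median 7.71) with ethanol. One MC903 library of cohort A lay within the ethanol range. Cd3g changed by -1.24 ± 0.27 (adjusted p = 0.00599), with -0.97 in cohort A (adjusted p = 0.126) and -1.60 in cohort B (adjusted p = 0.00647).

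Skin labelled BLT1 KO showed the same falls from a higher ethanol level. Cd3g was at 3.03, 5.59 and 4.57 cpm with MC903 and at 13.8, 18.8 and 11.2 cpm with ethanol (-1.75 ± 0.30, adjusted p = 0.00269). Cd3e was at 5.20, 3.50 and 2.35 cpm against 10.5, 8.16 and 9.58 cpm (-1.41 ± 0.28, adjusted p = 0.00576), and the groups of both genes were apart. TSLPR KO skin at day 8 had Cd3e at 2.21, 1.72 and 1.20 cpm against 9.92 and 4.30 cpm with ethanol. The 2 ethanol libraries were far apart, and the call on Cd3e (-2.02 ± 0.40, adjusted p = 0.0332) rested on few libraries. Refitted 5 times with a different library removed, it passed once, and adjusted p reached 0.230. It was lost without any of the 3 MC903 libraries or ethanol replicate 1. TSLPR KO Cd3g at day 12 was at 6.17, 5.86, 4.81 and 4.73 cpm against 7.54, 9.91 and 7.52 cpm, without overlap (-0.82 ± 0.17, adjusted p = 0.0173). That call was lost without MC903 replicate 4, ethanol replicate 1 or ethanol replicate 3, with adjusted p up to 0.0672, and in 1 fit over all skin libraries (adjusted p = 0.108). In PBS-injected skin neither gene passed, with -0.42 for Cd3e and -0.61 for Cd3g.

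Cd3d encodes the delta chain of CD3 and followed its neighbours less closely than they followed each other. Its estimate was a rise at wild-type day 8 and in PBS-injected skin (0.66) and a fall in the other conditions. The change of Cd3d was not tested against that of Cd3e or Cd3g. At wild-type day 8 it was at 2.25, 2.16, 1.18, 1.09 and 0.942 cpm with MC903 and at 0.698 to 1.25 cpm (median 1.03) with ethanol. Its 2 highest MC903 libraries, both of cohort A, lay above every ethanol library and the others within the ethanol range. The estimate was 0.55 ± 0.28 (adjusted p = 0.172), against falls of Cd3e and Cd3g in the same libraries. At day 1 it was at 0.312 to 0.688 cpm with MC903 and at 0.736 to 2.87 cpm with ethanol (-1.53 ± 0.48, adjusted p = 0.0611), and at day 5 at 0.318 to 0.957 and 0.723 to 1.25 cpm (adjusted p = 0.219). Of the 9 conditions, Cd3d passed the test in aGr1-injected skin alone. Across the 61 libraries Pearson's r of log2(cpm + 0.5) was 0.83 between Cd3e and Cd3g, 0.15 between Cd3e and Cd3d and 0.39 between Cd3g and Cd3d, a description over libraries that share their groups and differ in depth. Cd3d had r = 0.77 with Cd8a, and both also went with the B cell gene Cd79a, at 0.62 for Cd3d and 0.56 for Cd8a, against 0.19 for Cd3e and 0.25 for Cd3g. The part of the libraries rich in B cell transcripts in these r was not tested.

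**Figure D2:**
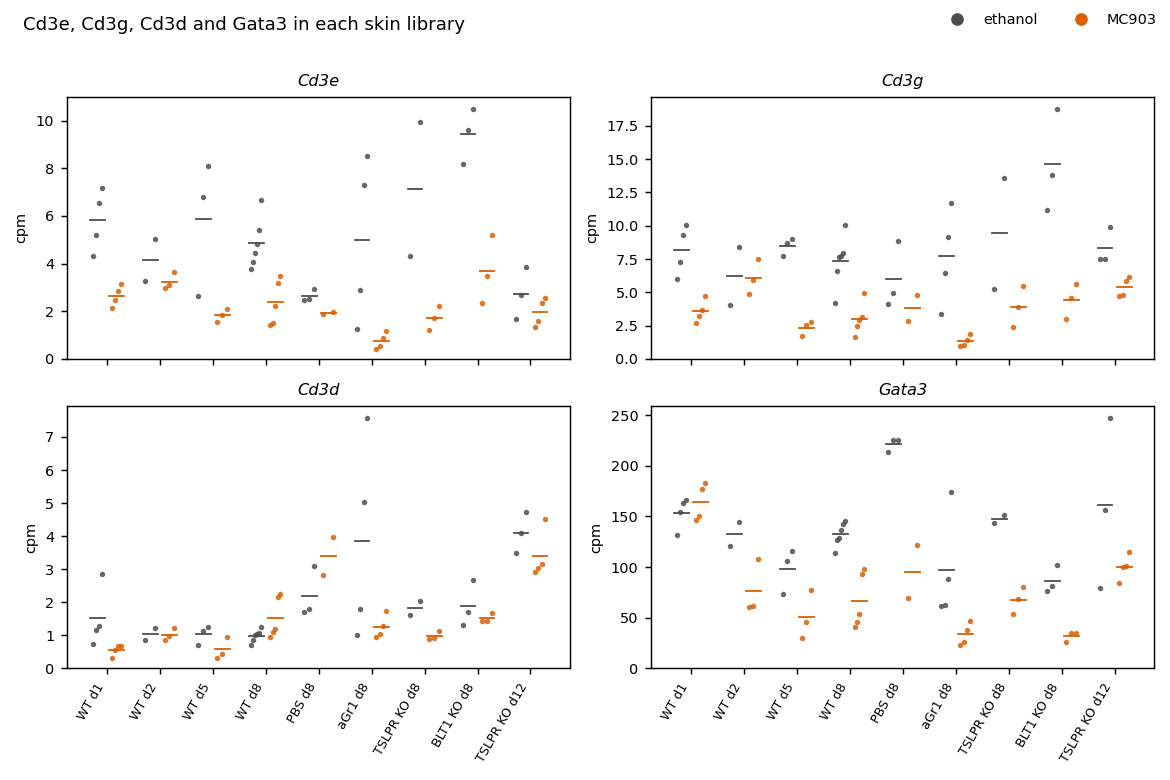
Levels of Cd3e, Cd3g, Cd3d and Gata3 in cpm (vertical axis, from 0) in each of the 61 skin libraries (points) by condition (horizontal axis), grey for ethanol and orange for MC903, with bars at the group means. At wild-type day 5 the 3 MC903 libraries of Cd3g (1.72 to 2.75 cpm) sit below the 3 ethanol libraries (7.70 to 9.03 cpm), while those of Cd3d overlap.

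Genes of a gamma-delta T cell list fell beside Cd3e and Cd3g. The list takes in constant genes such as Trdc and variable genes other than Tcrg-V5, so it is not confined to the epidermal cells. It also holds Sox13 and Xcl1, which are not receptor genes, and their part in the sum was not tested. The summed level of the 10 listed genes was 10.5 to 16.8 cpm with MC903 and 23.1 to 37.6 cpm with ethanol at day 1. It was 10.4 to 15.2 against 21.4 to 25.3 cpm at day 5 and 8.93 to 13.1 against 17.99 to 24.8 cpm at wild-type day 8. MC903 and ethanol libraries of the sum did not overlap in these groups, nor in PBS (17.9 to 22.2 against 30.3 to 36.5 cpm), aGr1 (15.3 to 22.02 against 28.2 to 32.2 cpm), TSLPR KO or BLT1 KO skin, and they overlapped at day 2 (9.89 to 22.2 against 19.4 to 26.7 cpm). The list had 4 of 8 tested genes lower at day 1, 4 of 8 at day 5, 6 of 8 at wild-type day 8, 1 of 9 in PBS, 8 of 10 in aGr1, 1 and 3 of 9 in TSLPR KO at days 8 and 12, and 6 of 9 in skin labelled BLT1 KO, with 0 higher in any condition. Of all genes 7.47% fell at day 1, 6.78% at day 5, 11.2% at wild-type day 8 and 14.6% in skin labelled BLT1 KO. In aGr1 skin 17.5% fell, with the ethanol libraries rich in B cell transcripts included. Trdc, the constant gene of the delta chain, changed by -1.56 ± 0.34 at day 1 (adjusted p = 0.0178) and by -1.99 ± 0.32 at wild-type day 8 (adjusted p = 0.000684). Tcrg-V5, the variable gene of the epidermal gamma chain, was at 0 counts in every MC903 library of wild-type day 8, PBS and BLT1 KO skin. Trac, the constant gene of the alpha chain, moved the other way at wild-type day 8, from 0.413 to 1.71 cpm with ethanol to 1.37 to 4.85 cpm with MC903 (1.46 ± 0.33, adjusted p = 0.00638). Over the 61 libraries r with Tcrg-V5 was 0.61 for Cd3e, 0.66 for Cd3g and 0.14 for Cd3d. With Trdv4 it was 0.66, 0.64 and -0.10, and with Trdc it was 0.40, 0.56 and 0.38, where Cd3d lay close to Cd3e. The keratinocyte gene Krt14 had r = -0.60 with Cd3e, -0.61 with Cd3g and -0.03 with Cd3d. The part of gamma-delta T cells, or of the higher share of keratinocyte transcripts, in the falls of Cd3e and Cd3g was not tested.

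Cd207, the Langerhans cell gene langerin and so a marker of another resident cell of the epidermis, was also lower, by 0.75 on the log2 scale at day 1 and by 2.81 at wild-type day 8. It passed the test in 8 of the 9 conditions, all but wild-type day 2. Summed with Epcam, the other gene of the Langerhans cell list, it was at 135.4 to 162.6 cpm with MC903 and at 215.2 to 258.1 cpm with ethanol at day 1. At wild-type day 8 that sum overlapped, at 151.1 to 277.2 against 228.4 to 392.1 cpm. Whether Langerhans cells themselves fell was not tested.

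**Figure D3:**
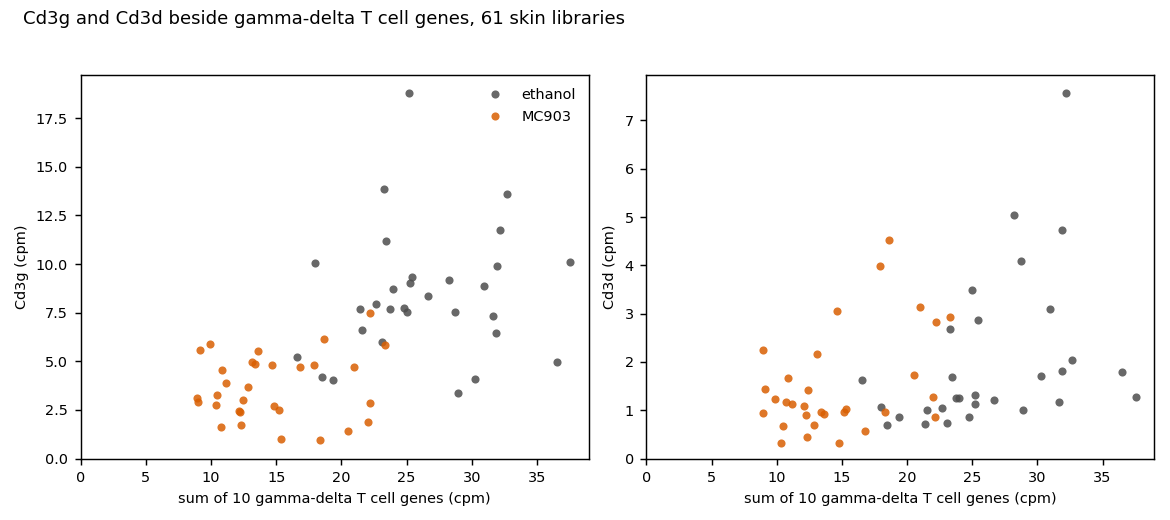
Cd3g (left) and Cd3d (right) in cpm (vertical axis) against the sum of the 10 genes of the gamma-delta T cell list, Sox13 and Xcl1 included, in cpm (horizontal axis). Each of the 61 skin libraries is 1 point, orange for MC903 and grey for ethanol. At wild-type day 8 MC903 libraries held sums of 8.93 to 13.1 cpm with Cd3g at 1.64 to 4.96 cpm, and ethanol libraries 17.99 to 24.8 cpm with Cd3g at 4.21 to 10.03 cpm.

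Cd4, the co-receptor gene of helper and regulatory T cells, rose in uninjected wild-type, PBS-injected and BLT1 KO skin at day 8. In uninjected wild-type skin it was at 1.57, 5.99, 3.91, 4.17 and 2.28 cpm with MC903 and at 0.509 to 1.71 cpm (median 0.715) with ethanol. The lowest MC903 library, of cohort A, lay below the highest ethanol library, also of cohort A, and the others lay above. Cd4 changed by 2.05 ± 0.34 (adjusted p = 0.000941), with 1.78 in cohort A (adjusted p = 0.0420) and 2.37 in cohort B (adjusted p = 0.00562). In PBS-injected skin it was at 5.73 and 4.37 cpm against 1.07, 0.714 and 0.711 cpm (2.62 ± 0.32, adjusted p = 0.0101). The fits of the PBS group rest on 5 libraries. Leaving out ethanol replicate 1, a library without high B cell genes, lost all 4 of its calls, Cd4 included (2.81, adjusted p = 0.0751). The calls were not kept either without MC903 replicate 1, the one with B cell transcripts, where Cd4 was at 2.44. That fit leaves a single MC903 library. BLT1 KO skin had Cd4 at 7.60, 7.93 and 4.24 cpm against 2.33, 1.27 and 1.37 cpm, without overlap (1.95 ± 0.35, adjusted p = 0.00322).

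Before day 8 no change in Cd4 passed. At day 1 it was at 0.574, 0.942, 0.935 and 0.612 cpm with MC903 and at 0.552, 1.23, 1.76 and 7.91 cpm with ethanol, the highest being the library with B cell transcripts (-2.04 ± 0.79, adjusted p = 0.113, and -0.57 without it). At day 5 it was at 4.15, 3.13 and 2.43 cpm against 2.86, 1.32 and 0.94 cpm (0.86 ± 0.39, adjusted p = 0.181). One ethanol library lay among the MC903 libraries. In TSLPR KO skin Cd4 was at 1.95, 3.59 and 4.57 cpm against 2.56 and 1.35 cpm at day 8 (0.83, adjusted p = 0.447). At day 12 it was at 8.94, 12.4, 4.61 and 9.24 cpm against 2.30, 2.29 and 4.60 cpm, groups that touched without overlap (1.24 ± 0.43, adjusted p = 0.101). Without ethanol replicate 3, the library with B cell transcripts, that rise passed (1.87, adjusted p = 0.0264).

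Cd8a, the alpha chain gene of the CD8 co-receptor, was a low gene in ethanol skin. In uninjected wild-type skin at day 8 it was at 0.0805 to 0.756 cpm (median 0.298; 3 to 26 counts) with ethanol and at 2.25, 3.97, 0.776, 1.20 and 0.395 cpm with MC903. The lowest MC903 library, of cohort B, lay within the ethanol range. Cd8a changed by 2.01 ± 0.63 (adjusted p = 0.0361), with 2.70 in cohort A (adjusted p = 0.0381) and 1.02 in cohort B (adjusted p = 0.536). Removing each library in turn kept the call in 3 of 11 fits, and adjusted p reached 0.0892 in the others. PBS-injected skin had 3.77 and 1.66 cpm against 0.275, 0.397 and 0.277 cpm (3.10 ± 0.46, adjusted p = 0.0195, and 0.158 without ethanol replicate 1). BLT1 KO skin had 1.35, 1.54 and 1.91 cpm against 0.579, 0.322 and 0.958 cpm, apart but not past the threshold (1.33 ± 0.47, adjusted p = 0.0673).

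TSLPR KO skin differed in its ethanol level of Cd8a, which was 4.74 and 5.75 cpm at day 8 and 5.31, 5.82 and 6.49 cpm at day 12. No ethanol library of uninjected or PBS-injected wild-type skin exceeded 0.756 cpm but for wild-type day 1 replicate 4, the one with B cell transcripts, at 6.73 cpm. The levels are set side by side without a test. The labels give no sequencing batch, so genotype cannot be told apart from a possible batch difference across conditions. MC903 libraries of TSLPR KO skin were at 3.31, 1.90 and 0.996 cpm at day 8 (-1.34 ± 0.44, adjusted p = 0.188) and at 7.49, 5.22, 2.64 and 3.19 cpm at day 12 (-0.57).

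**Figure D4:**
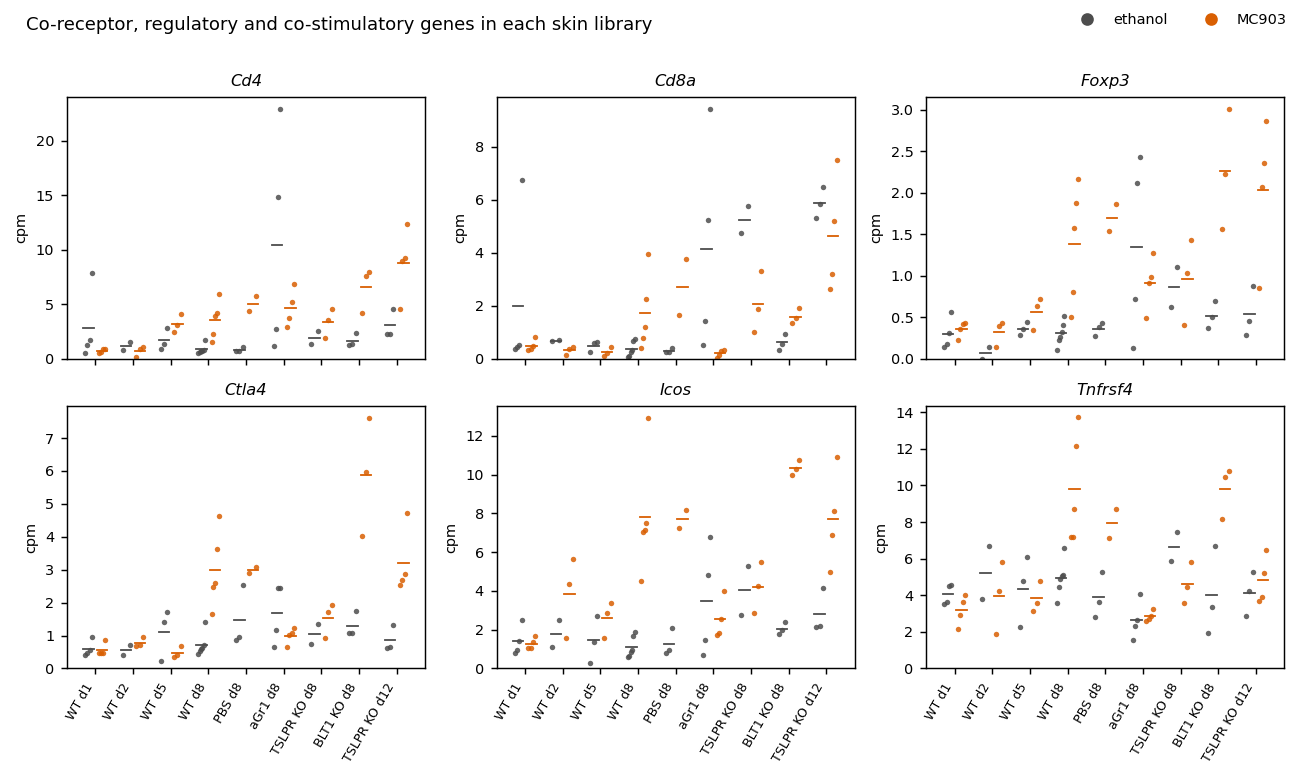
Levels of Cd4, Cd8a, Foxp3, Ctla4, Icos and Tnfrsf4 in cpm (vertical axis, from 0) in each skin library (points) by condition (horizontal axis), grey for ethanol and orange for MC903, with bars at the group means. Icos in MC903 libraries of wild-type day 8 (4.49 to 12.9 cpm) lies above all ethanol libraries of that day (0.572 to 1.88 cpm), while in aGr1 skin it lies within the ethanol range (0.696 to 6.80 cpm).

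Foxp3, which specifies regulatory T cells, rose at day 8. In uninjected wild-type skin it was at 0.503, 2.16, 0.805, 1.88 and 1.58 cpm with MC903 (17 to 78 counts) and at 0.107 to 0.520 cpm (median 0.298; 4 to 17 counts) with ethanol. The lowest MC903 library fell just inside the ethanol range. Foxp3 changed by 2.16 ± 0.43 (adjusted p = 0.00322), with 1.85 in cohort A (adjusted p = 0.0949) and 2.52 in cohort B (adjusted p = 0.0136). In PBS-injected skin it was at 1.86 and 1.54 cpm against 0.378, 0.436 and 0.277 cpm (2.23 ± 0.36, adjusted p = 0.0263, and 0.167 without ethanol replicate 1). BLT1 KO skin had 2.23, 3.01 and 1.56 cpm against 0.698, 0.503 and 0.367 cpm (2.08 ± 0.40, adjusted p = 0.00518). In both, MC903 and ethanol libraries were well separated. TSLPR KO skin had 0.404, 1.44 and 1.03 cpm against 1.11 and 0.624 cpm at day 8 (0.20). At day 12 it had 2.87, 2.08, 0.851 and 2.36 cpm against 0.292, 0.454 and 0.873 cpm (1.66 ± 0.54, adjusted p = 0.0862, and 2.42 without ethanol replicate 3, adjusted p = 0.0321). Foxp3 shares exon bases with Flicr on the same strand and with Ppp1r3f, Ccdc22 and Gm36995 on the opposite strand. Whether reads were counted by strand is not stated. In spinal cord, where Cd3e had a median of 0.0367 cpm, Foxp3 still had a median of 0.433 cpm, so the lowest skin levels of Foxp3 are not above a tissue with few T cell transcripts.

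Ctla4 encodes an inhibitory receptor that competes for the ligands of CD28. At wild-type day 8 it was at 2.61, 4.63, 1.67, 2.46 and 3.62 cpm with MC903 and at 0.429 to 1.42 cpm (median 0.608) with ethanol, without overlap. The rise was 2.16 ± 0.31 (adjusted p = 0.000323), with 2.47 in cohort A (adjusted p = 0.00584) and 1.77 in cohort B (adjusted p = 0.0282). BLT1 KO skin had 5.97, 7.60 and 4.03 cpm against 1.08, 1.09 and 1.73 cpm (2.13 ± 0.35, adjusted p = 0.00206). TSLPR KO skin at day 12 had 4.73, 2.70, 2.87 and 2.54 cpm against 0.607, 1.31 and 0.639 cpm (1.77 ± 0.32, adjusted p = 0.00968), also without overlap. At day 5 the order was not yet that of day 8: 0.399, 0.344 and 0.676 cpm with MC903 against 1.71, 1.41 and 0.217 cpm with ethanol (-1.23 ± 0.62, adjusted p = 0.224). The MC903 effect on Ctla4 at wild-type day 8 exceeded that at day 5 by 3.40 ± 0.66 (edgeR interaction, adjusted p = 0.0197), the single member called in that comparison, where 0.706% of genes had a higher and 0.916% a lower effect. The difference missed the threshold without day 5 ethanol replicate 1 or 2 or MC903 replicate 1 or 2, with adjusted p up to 0.0595, and with cohort B as the day 8 group 0 members were called.

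Icos, the inducible co-stimulator, rose the most of the members in uninjected wild-type skin at day 8. It was at 7.14, 12.9, 4.49, 7.05 and 7.47 cpm with MC903 and at 0.572 to 1.88 cpm (median 0.896) with ethanol, and the lowest MC903 library was above the highest ethanol library. The means were 7.81 ± 3.08 (SD, n = 5) and 1.09 ± 0.548 cpm (SD, n = 6). The change of 2.87 ± 0.33 (adjusted p = 5.44e-05) was 2.97 in cohort A (adjusted p = 0.00462) and 2.71 in cohort B (adjusted p = 0.00242). In PBS-injected skin Icos was at 7.23 and 8.16 cpm against 0.928, 2.06 and 0.790 cpm (2.65 ± 0.43, adjusted p = 0.0265, and 0.183 without ethanol replicate 1). BLT1 KO skin had 10.3, 9.999 and 10.8 cpm against 2.39, 1.77 and 1.98 cpm (2.30 ± 0.21, adjusted p = 0.000109), the 3 MC903 libraries lying close together. TSLPR KO skin at day 8 had 5.51, 2.84 and 4.23 cpm against 5.29 and 2.77 cpm, 2 mixed groups (0.07, adjusted p = 0.953). At day 12 it had 10.9, 8.12, 4.97 and 6.90 cpm against 2.21, 4.13 and 2.13 cpm, without overlap (1.30 ± 0.29, adjusted p = 0.0220). Removing each library in turn kept that call in 2 of 7 fits, those without MC903 replicate 3 or ethanol replicate 2, and adjusted p reached 0.0892 in the others. It was lost in 1 fit over all skin libraries (adjusted p = 0.122). At day 2 Icos was at 5.64, 4.35 and 1.55 cpm against 2.47 and 1.11 cpm, the lowest MC903 library being the one with sensory neuron transcripts. The estimate was 1.11 ± 0.71 with that library and 1.50 without it (adjusted p = 0.408).

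Tnfrsf4 encodes OX40, a co-stimulatory receptor of the tumour necrosis factor receptor family. It was at 12.1, 13.7, 7.16, 8.72 and 7.17 cpm with MC903 and at 3.56 to 6.57 cpm (median 4.97) with ethanol at wild-type day 8, without overlap (0.96 ± 0.20, adjusted p = 0.00359). The change was 1.11 in cohort A (adjusted p = 0.0381) and 0.75 in cohort B (adjusted p = 0.0656). Tnfrsf4 passed in no other single condition, with 1.06 in PBS (adjusted p = 0.148) and 1.25 ± 0.43 in BLT1 KO skin (adjusted p = 0.0597), where MC903 libraries again lay above ethanol libraries. The BLT1 KO change passed in 4 of 6 alternatives, those without a filter, with DESeq2, with a replicate block and in 1 fit over all skin libraries, with adjusted p down to 0.00189. Its level per kilobase of exon in ethanol skin, 3.62 cpm per kb, was above that of the 3 CD3 genes, which were at 2.25 (Cd3g), 1.19 (Cd3e) and 0.546 cpm per kb (Cd3d).

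MC903 libraries lay wholly above ethanol libraries for 3 members at wild-type day 8, Ctla4, Icos and Tnfrsf4 (6.95% of all genes), and wholly below for Cd3e and Gata3 (5.09%). In PBS-injected skin this held for 6 members above (20.1%) and 2 below (17.2%), and in BLT1 KO skin for 6 above (22.9%) and 3 below (19.9%). TSLPR KO skin at day 8 had 0 members above (15.3%) and 5 below (16.6%), and at day 12 it had 3 above (14.6%) and 1 below (4.93%). At day 2, 0 members were above (10.6%) and 2 below (8.90%), and at day 5, 0 were above (20.7%) and 2 below (11.6%).

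Gata3 was the most abundant member, with 33.3 cpm per kb of exon in wild-type day 8 ethanol skin against 2.25 for Cd3g. At day 1 its level was 151, 183, 146 and 177 cpm with MC903 and 166, 163, 154 and 131.3 cpm with ethanol (0.06, adjusted p = 0.727), overlapping groups at a time when Cd3e and Cd3g had fallen. At wild-type day 8 it was at 54.1, 46.2, 41.4, 93.4 and 98.3 cpm with MC903 and at 114.2 to 145.5 cpm (median 133.1) with ethanol. The 3 MC903 libraries of cohort A were the lowest and the 2 of cohort B lay closer to ethanol. Gata3 changed by -1.02 ± 0.22 (adjusted p = 0.00446), with -1.61 in cohort A (adjusted p = 0.000767) and -0.35 in cohort B (adjusted p = 0.253). BLT1 KO skin had 35.2, 25.99 and 34.8 cpm against 80.9, 102 and 75.96 cpm (-1.47 ± 0.15, adjusted p = 0.000203). TSLPR KO skin at day 8 had 53.7, 68.8 and 80.2 cpm against 152 and 144 cpm (-1.10 ± 0.24, adjusted p = 0.0463). Leaving out any 1 of those 5 libraries lost this last call, with adjusted p up to 0.134. At day 5 the levels were 30.3, 45.6 and 77.3 cpm against 106, 115.5 and 73.8 cpm (-1.03 ± 0.31, adjusted p = 0.0624), with 1 library of each group inside the other. This change also passed in 4 of 6 alternatives, the same 4 settings, with adjusted p down to 0.00745. PBS-injected skin had 69.2 and 121.99 cpm against 225, 214 and 225 cpm (-1.17 ± 0.29, adjusted p = 0.0892). Gata3 shares exon bases with 9230102O04Rik on the same strand and Gm13256 on the opposite strand.

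aGr1-injected skin stood apart from the other day 8 groups. Cd3g was at 0.959, 1.03, 1.86 and 1.44 cpm with MC903 and at 11.7, 9.18, 6.46 and 3.39 cpm with ethanol (-2.91 ± 0.40, adjusted p = 0.000759). Cd3e was at 0.868, 0.435, 1.17 and 0.545 cpm against 8.50, 7.31, 2.89 and 1.26 cpm (-3.12 ± 0.61, adjusted p = 0.00483). In both genes ethanol replicates 1 and 2 were the highest and replicate 4 the lowest of their group, in the order of the B cell sums (490.2, 211.6, 28.1 and 3.74 cpm), whereas MC903 libraries had B cell sums of 3.52 to 4.02 cpm. Cd8a was at 0.0457, 0.158, 0.293 and 0.347 cpm (1 to 7 counts) against 9.42, 5.23, 1.45 and 0.522 cpm (-4.66 ± 0.94, adjusted p = 0.00556). Cd3d was at 0.959, 1.03, 1.27 and 1.74 cpm against 7.57, 5.05, 1.81 and 1.0003 cpm (-2.01 ± 0.58, adjusted p = 0.0273). It overlapped, and its call was lost without MC903 replicate 1, 2 or 3 or ethanol replicate 1 or 2, with adjusted p up to 0.0799. Gata3 was at 37.7, 26.2, 47.2 and 22.9 cpm against 61.3, 62.8, 174 and 88.5 cpm, where replicates 1 and 2 were the lowest ethanol libraries (-1.84 ± 0.31, adjusted p = 0.00226). MC903 lay wholly below ethanol for 4 members (7.34% of all genes) and above for 0 (22.4%).

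In the same group Cd4 was at 5.21, 3.75, 6.85 and 2.92 cpm with MC903 and at 22.9, 14.8, 2.71 and 1.17 cpm with ethanol. MC903 libraries lay between the ethanol pairs, and the estimate was -1.55 ± 0.78 (adjusted p = 0.161). Foxp3 was at 0.914, 0.988, 1.27 and 0.496 cpm against 2.43, 2.12, 0.723 and 0.131 cpm (-0.95, adjusted p = 0.309). Icos was at 2.56, 1.82, 4.01 and 1.74 cpm against 6.80, 4.83, 1.49 and 0.696 cpm (-0.84, adjusted p = 0.337). All 3 genes had the same 2 high ethanol libraries. Ctla4 (-1.14, adjusted p = 0.0738) and Tnfrsf4 (-0.23) did not pass.

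Without the 3 ethanol libraries over 20 cpm of B cell genes, a choice made after seeing the data that leaves 1 ethanol library, assumed to vary like the MC903 libraries, 2 members were called instead of 5. Cd3g stayed lower at -1.99 ± 0.39 (adjusted p = 0.0145) and Gata3 at -2.03 ± 0.33 (adjusted p = 0.00666). Cd3e was at -1.38 (adjusted p = 0.134), Cd8a at -1.93 (adjusted p = 0.153) and Cd3d at -0.31 (adjusted p = 0.701). Cd4 turned from -1.55 to 1.36 (adjusted p = 0.133), Foxp3 from -0.95 to 2.15 (adjusted p = 0.117) and Icos from -0.84 to 1.23 (adjusted p = 0.221). All 7 B cell markers were called lower with MC903 in the full group, and Ptprc, the leukocyte gene CD45, was at 38.9 to 46.5 cpm with MC903 and at 30.3 to 207.0 cpm with ethanol.

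**Figure D5:**
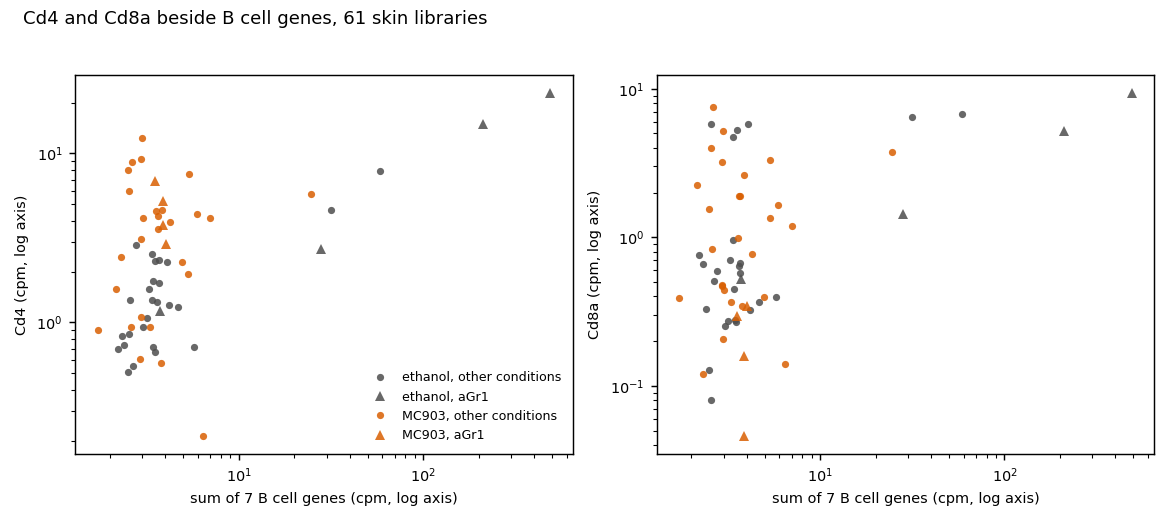
Cd4 (left) and Cd8a (right) in cpm on a log axis against the sum of 7 B cell genes in cpm on a log axis, 1 point for each of the 61 skin libraries, orange for MC903 and grey for ethanol, with triangles for aGr1 skin. The 2 aGr1 ethanol libraries with the highest B cell sums (211.6 and 490.2 cpm) have Cd4 at 14.8 and 22.9 cpm and Cd8a at 5.23 and 9.42 cpm.

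Whether the MC903 effect itself differed between conditions was tested with an interaction term. Against uninjected wild-type skin of day 8, aGr1 skin had a lower effect for 7 members and a higher effect for 0, against 3.36% and 1.20% of all genes. These were Cd8a (-6.66 ± 1.18, adjusted p = 0.00568), Ctla4 (-3.29 ± 0.55, adjusted p = 0.00495), Icos (-3.69 ± 0.72, adjusted p = 0.00797), Cd4 (-3.58 ± 0.85, adjusted p = 0.0223), Cd3d (-2.55 ± 0.62, adjusted p = 0.0259), Tnfrsf4 (-1.18 ± 0.29, adjusted p = 0.0269) and Foxp3 (-3.10 ± 0.81, adjusted p = 0.0350). Cd3e, Cd3g and Gata3 did not pass, at -2.11, -1.66 and -0.81. Without the 3 ethanol libraries of the aGr1 group over 20 cpm of B cell genes 0 of the 10 were called, and with cohort B alone as the wild-type group 1 was. Leaving out MC903 replicate 1 or 2 or ethanol replicate 1 or 2 of the aGr1 group also moved the count by more than 1.5 times, within a range of 3 to 9 members. Against PBS-injected skin, the injected control group, only Cd8a had a lower effect (-7.73 ± 1.27, adjusted p = 0.0296), against 0.228% of genes lower and 0.00374% higher. Leaving out every library of these groups over 20 cpm of B cell genes also removed PBS MC903 replicate 1. The Cd8a estimate was then -4.32 and no longer passed, with 1 PBS MC903 and 1 aGr1 ethanol library left. The Cd8a difference was lost in 9 of 13 fits with 1 library removed, with adjusted p up to 0.158, and with a replicate block (adjusted p = 0.178). The labels give no sequencing batch, so the antibody cannot be told apart from a possible batch difference across these groups.

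For TSLPR KO skin at day 8, edgeR called 0 members different from uninjected wild-type skin (0.0111% of genes with a higher and 0.166% with a lower effect, 3460 genes at an unadjusted p under 0.05), and DESeq2 called 3. The estimates for Icos (-2.76 ± 0.56, adjusted p = 0.0618), Tnfrsf4 (-1.45 ± 0.34, adjusted p = 0.113) and Cd8a (-3.33 ± 0.95, adjusted p = 0.190) were the furthest from 0 against their errors. Icos passed when wild-type MC903 library skin2 or ethanol library skin3 of cohort A, cohort B ethanol replicate 3 or TSLPR KO ethanol replicate 2 was left out, with adjusted p down to 0.0333. For BLT1 KO skin, 0 members were called by edgeR or by DESeq2 (4.35% and 2.60% of genes, 5991 at an unadjusted p under 0.05), with estimates from -0.86 for Cd3d to 0.34 for Tnfrsf4. Days 12 and 8 of TSLPR KO skin differed in 0 of 26971 genes by edgeR (0.00%, 2028 at an unadjusted p under 0.05). DESeq2 called 149 genes and 0 members. Foxp3 (1.41), Cd3e (1.35), Icos (1.18) and Ctla4 (1.16) had the highest estimates there.

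The subset genes were also set against Cd3e within each library, as log2 ratios with 0.5 cpm added to both genes. At wild-type day 8 all 4 ratios were higher with MC903, by 2.46 for Cd4/Cd3e, 2.12 for Cd8a/Cd3e, 2.09 for Foxp3/Cd3e and 2.44 for Ctla4/Cd3e. Each had p = 0.005 in a two-sided exact permutation test within cohorts, the smallest p that 200 splits can give, and an adjusted p of 0.045 over the 36 ratios tested. Of the 36, 12 had an unadjusted p under 0.05 and these 4 passed after adjustment. With 0.1 cpm added 0 passed, and 1 ratio difference changed sign. In an exact permutation test, groups of 3 against 3 cannot go below p = 0.1, nor groups of 4 against 4 below 0.0286. With 0.5 cpm added, Foxp3/Cd3e and Ctla4/Cd3e were higher with MC903 without overlap in all 9 conditions. At day 1 the differences were 1.12 and 0.96 (each exact permutation p = 0.0286, adjusted p = 0.0857). In aGr1 skin they were 1.72 and 1.44 (each exact permutation p = 0.0286, adjusted p = 0.0857). The added 0.5 cpm exceeds the Foxp3 median of wild-type day 8 ethanol skin (0.298 cpm). Whether the groups stay apart with less added was not tested. The ratio can rise through its numerator or its denominator, and at day 1 neither Foxp3 (0.20) nor Ctla4 (-0.11) had passed the test while Cd3e had fallen. In aGr1 skin Cd3e was highest in ethanol libraries rich in B cell transcripts. No genes outside the members were set over Cd3e, so how many would separate in the same way is not known.

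Genes of the T cell receptor complex and its proximal signalling, other than the members, followed the rising members at wild-type day 8. Of 17 tested, 10 were higher and 0 lower, against 12.2% and 11.2% of all genes. The median log2 fold change was 1.23 against -0.03 over all genes. Trbc2 (1.47), Trbc1 (1.32) and the adaptor gene Lcp2 (1.71) were among those that rose. Cd247, the zeta chain of the same receptor, did not pass (0.00, adjusted p = 0.996). At day 1 the list had 0 higher and 4 lower, Cd247, Cd5, Lcp2 and Zap70, and 1 higher and 0 lower at day 5. In PBS 4 were higher, in BLT1 KO skin 7, in TSLPR KO skin 0 at day 8, and at day 12 Trbc2 and Lcp2 were higher and Cd247 lower. In aGr1 skin 0 were higher and 6 lower, against 15.1% and 17.5% of all genes, with the ethanol libraries rich in B cell transcripts included.

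Of 12 other regulatory T cell genes, 6 were higher and 1 lower at wild-type day 8, with a median of 1.32. Tnfrsf9 (3.94 ± 0.33), Il10 (3.27 ± 0.35), Lrrc32 (1.81 ± 0.21) and Tnfrsf18 (1.17 ± 0.14) rose, and Ikzf2, the gene of the factor Helios, fell by 0.93 (adjusted p = 0.00851). Ikzf2 was lower in 6 of the 9 conditions, and it moved against Foxp3 at wild-type day 8 and in BLT1 KO skin. The list had 5 higher and 1 lower in BLT1 KO, 2 higher in PBS, 0 higher and 1 lower in TSLPR KO at day 8, 2 higher at day 12, and 2 higher and 3 lower in aGr1 skin. At day 1, 0 were higher and 4 lower, and at day 5, 1 higher and 1 lower.

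Of 16 helper T cell genes tested at wild-type day 8, 7 were higher and 2 lower. Il1rl1, the receptor of interleukin 33, Cxcr3 (1.66 ± 0.24), Il4 (2.92 ± 0.50) and Ptgdr2 led the rises, and Ccr4 (-1.80 ± 0.31) was among the lower. Il4 also rose in PBS (2.85), BLT1 KO (3.61) and aGr1 skin (3.57). The model of the study names basophils among the cells that TSLP drives to make IL-4. Basophil genes summed to 21.1 to 38.85 cpm with MC903 and to 3.98 to 6.24 cpm with ethanol at wild-type day 8. Their sum was also higher without overlap in PBS, BLT1 KO and aGr1 skin, and overlapped in TSLPR KO skin. The part of T cells in the changes of the helper list was not tested. The list had 4 higher and 3 lower of 17 in BLT1 KO, 2 and 1 in PBS, 2 and 5 in aGr1, 0 and 1 in TSLPR KO at day 8 and 0 and 4 at day 12. Before day 8 it had 0 higher and 1 lower at day 1, and 0 and 3 at day 5. Of the cytotoxic genes, Gzmb (5.53 ± 0.59) and Gzma (4.09 ± 0.82) were the 2 of 8 that rose at wild-type day 8, with 0 lower, beside a change of Cd8a of 2.01. Prf1 and Nkg7 were lower at days 1 and 5. The cytotoxic list had 1 higher in PBS, 3 higher and 2 lower in BLT1 KO, 0 and 5 in aGr1, 0 and 2 in TSLPR KO at day 8 and 0 and 0 at day 12.

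Trafficking and memory genes had 5 higher and 2 lower of 11 at wild-type day 8, with Cd69 (2.52 ± 0.30) among the higher. They had 5 and 1 in BLT1 KO, 2 and 0 in PBS, 0 and 2 in aGr1, 1 and 1 in TSLPR KO at day 8, 0 and 0 at day 12, 1 and 2 at day 1, and 1 and 1 at day 5. Of 7 genes of ligands and partner molecules on antigen-presenting cells, 6 were higher at wild-type day 8 and 0 lower, with a median of 2.12, and the seventh, Tnfsf4, the ligand of OX40, did not pass (2.60 ± 0.90, adjusted p = 0.0531). Beside the ligands of the members the list holds Cd40 and the PD-1 ligand genes Cd274 and Pdcd1lg2. Pdcd1lg2 (4.09 ± 0.49), Cd80 (2.78 ± 0.38) and Icosl, the ligand of ICOS (0.66 ± 0.13), were among them. In BLT1 KO skin 5 of the 7 were higher, in PBS and at TSLPR KO day 12 1, at day 5 2 (Cd80 and Icosl), and in aGr1 and TSLPR KO day 8 skin 0. Cd274 was lower at day 1. At day 2, 0 genes of any of these lists passed edgeR, as for all genes. The members and these lists were described by counts and medians, and no test of a list against other genes was made. The shares of all genes that passed in each condition are those given with the members. Counts of these lists in aGr1 skin include the ethanol libraries rich in B cell transcripts and are not given without them.

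Over the 61 libraries the levels of the rising members went together and Cd3e did not go with them. Foxp3 went with Cd4 (r = 0.85) and Icos (0.81), and Ctla4 with Icos (0.81), while Cd3e had r = -0.14 with Cd4 and -0.09 with Icos. The 10 genes most like the mean of the 3 CD3 genes, among 17640 genes with a mean of at least 1 cpm, were Rnase6, H2-DMa and Slamf7 (each r = 0.82), Nkg7 and Lsp1 (each 0.78), Ctsw (0.77), and H2-M2, Chst3, Apol7a and H2-Q6 (each 0.76). These r describe libraries that share groups, differ in depth and may share batches, which the labels do not give.

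Cd3e and Cd3g were low in the other tissues, while Gata3, Cd8a and Cd3d were counted in all of their libraries. The highest cpm in 27 spinal cord libraries was 0.217 for Cd3e, 0.0804 for Cd3g and 1.69 for Gata3. In the 56 trigeminal ganglion libraries other than wild-type day 12 it was 1.04 for Cd3e, 1.30 for Cd3g, 1.32 for Cd4 and 17.1 for Gata3, against skin maxima of 10.5, 18.8, 22.9 and 248 cpm. Cd8a in these ganglia, with a median of 0.885 cpm, was above its median of 0.298 cpm in wild-type day 8 ethanol skin, so its lowest skin levels do not exceed a tissue with few Cd3e transcripts. The same limit holds for Cd3d, which had a median of 0.551 cpm in spinal cord against 0.0367 cpm for Cd3e. With MC903 the skin means of Cd3d were near that level, at 0.562 cpm at wild-type day 1 and 0.574 cpm at day 5.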

How the data were processed

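RNA-seq of cheek skin was compared between MC903 and ethanol in 9 conditions. The authors made poly(A)-selected single-end libraries, mapped them to mm10 with TopHat and Bowtie2 and counted reads per gene with HTSeq, per the study's methods and the submitters' processing notes. The values deposited by the authors are whole-number counts for each Ensembl gene, not normalized. Annotation release and strand setting are not given in the sources used here. HTSeq's tally lines stayed out of every total and test, and reads on no gene came to 7.57% to 18.3% of the counts in skin.

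Symbols and coordinates came from GENCODE M21, which held 45143 of the 46078 identifiers, and promoters from RefSeq. Groups followed the labels, each condition was fitted on its own libraries, and wild-type day 8 carried a cohort term. The wild-type day 12 libraries were not used in comparisons. Counts were tested with edgeR 4.0.16 in R 4.3.3 (quasi-likelihood F test, TMM, genes with at least 10 counts in total, Benjamini-Hochberg adjusted p under 0.05 over all genes), checked on simulated data. Interactions used the libraries of both conditions. Ratios were tested with SciPy 1.17.1 by exact permutation. The 82 pairs of replicates within groups differed by more than sampling noise (chi-square per degree of freedom 11.6 to 833.6).

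The text names the 10 members, up to 4 genes of each pathway list by smallest p, defining markers of other cells, and the genes most like the CD3 mean. Some genes that this rule names are not reported here. Cd247 at wild-type day 8, Trac, Tnfsf4 and the recurrences of Ikzf2 and Il4 were named after their values were seen. Members and lists were chosen with earlier results of these data known. Alternatives were DESeq2 1.42.0, its size factors, other filters, 1 fit over all skin libraries, cohorts, a replicate block and leaving out each library.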

Additional observations from a re-analysis of the deposited data

Results flagged for a closer look

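In groups of 4 to 10 libraries, the highest or lowest library was set against the nearest of the others by Dixon's test, which chance passes in about 1 of 20 groups. Of 70 groups, 7 had such a library. Ethanol replicate 4 of wild-type day 1 was high for Cd4 (7.91 cpm) and Cd8a (6.73 cpm), and its B cell genes summed to 58.6 cpm. At wild-type day 8, 1 ethanol library of cohort A was high for Cd4 (1.71 cpm) and ethanol replicate 3 of cohort B for Ctla4 (1.42 cpm). MC903 replicate 1 was high for Ctla4 at wild-type day 1 (0.861 cpm), and in TSLPR KO skin at day 12 for Ctla4 (4.73 cpm) and Cd3d (4.51 cpm).

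The MC903 effect differed between conditions in 9 of 60 tests of single members, on the log2 scale. Against uninjected wild-type skin, the effect in aGr1 skin was lower for Cd8a (-6.66), Icos (-3.69), Cd4 (-3.58), Ctla4 (-3.29), Foxp3 (-3.10), Cd3d (-2.55) and Tnfrsf4 (-1.18), and against PBS-injected skin it was lower for Cd8a (-7.73). B cell genes were high in 3 of the 4 aGr1 ethanol libraries and in PBS MC903 replicate 1. These calls were not kept without the libraries high in B cell genes. Against PBS-injected skin PBS MC903 replicate 1 was left out too, and Cd8a was at -4.32. The part of these libraries in the differences was not tested beyond that. Wild-type day 8 differed from day 5 for Ctla4 (3.40).

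Outside the comparisons, Gata3 reached 221.2 cpm in a trigeminal ganglion library labelled wild-type day 12. Of the 9 ganglion libraries with that label, 6 had Scn10a, a sensory neuron gene, under 1 cpm and the keratin gene Krt14 at 1372 to 15630 cpm, with Gata3 at 51.97 to 221.2 cpm. The other 56 ganglion libraries had Scn10a at 107.8 to 1216 cpm and Gata3 at up to 17.1 cpm. These 6 libraries, 5 of MC903 and 1 of ethanol, go against their tissue label and entered no comparison.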

How the results depend on the processing

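Each condition held 5 to 11 libraries, and low counts (1 to 26 for Cd8a and Foxp3 in several groups) limit the precision. Of 949 alternative values of the 150 member results, 14 changed sign, 1 of them where the main value had passed, and 38 lost and 41 gained a call. Of 1550 values that left out 1 library, 59 changed sign, none where the main value had passed. The causes were not tested.

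Counts of members called moved by over 1.5 times as follows. With the replicate number as a block, PBS had 2 (4 without it), TSLPR KO day 12 0 (3), aGr1 minus wild-type 3 (7) and aGr1 minus PBS 0 (1); the block changed 18 of 150 calls. Same-numbered libraries deviated together at a mean r of -0.47 to 0.18, so the numbers were not taken to pair them. With DESeq2, TSLPR KO day 12 had 6, aGr1 minus PBS 6, TSLPR KO minus wild-type 3 (0 by edgeR) and day 8 minus day 5 4 (1). Without a filter, TSLPR KO day 8 had 4 (2) and TSLPR KO minus wild-type 1. With cohort B alone, wild-type day 8 had 5 (9), aGr1 minus wild-type 1, BLT1 KO minus wild-type 1 (0) and day 8 minus day 5 0. Without the libraries rich in B cell genes, an alternative chosen after seeing the data, aGr1 had 2 (5), aGr1 minus wild-type 0 and aGr1 minus PBS 0. With 0.1 cpm added, 0 of 36 ratios passed (4).

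Signs turned under the block for Cd3g at day 2 (0.036), Foxp3 in TSLPR KO day 8 (-0.0365), Tnfrsf4 in TSLPR KO day 12 (-0.041), and Foxp3 (0.034) and Ctla4 (-0.17) in BLT1 KO minus wild-type. They turned without a filter for Ctla4 in BLT1 KO minus wild-type (-0.029), with cohort B for Cd8a there (0.37), and without the libraries rich in B cell genes for Cd4 (1.36), Foxp3 (2.15), Icos (1.23) and Tnfrsf4 (0.23) in aGr1, Foxp3 in aGr1 minus wild-type (0.015) and minus PBS (0.082), and Gata3 in TSLPR KO day 12 minus day 8 (-0.0010).

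Leaving out 1 library gave 2 to 4 members called at day 1, 1 to 3 at day 5, 0 to 7 in PBS, 0 to 1 in TSLPR KO day 8, 1 to 5 at day 12, 3 to 9 for aGr1 minus wild-type, 0 to 3 for aGr1 minus PBS, 0 to 1 for TSLPR KO minus wild-type and 0 to 3 for day 8 minus day 5. Log2 fold changes whose sign turned, none of them past the threshold, ranged at day 1 from -0.32 to 0.17 (Ctla4), -0.043 to 0.80 (Foxp3), -2.57 to 0.25 (Cd8a) and -0.47 to 0.32 (Icos). At day 2 they ranged from -0.21 to 0.045 (Cd3d), -0.41 to 0.40 (Cd3g) and -0.083 to 0.99 (Ctla4), and at day 5 from -0.42 to 0.0086 (Tnfrsf4). In TSLPR KO skin they were -0.28 to 0.55 (Icos) and -0.25 to 0.61 (Foxp3) at day 8 and -0.11 to 0.18 (Tnfrsf4) at day 12. For TSLPR KO minus wild-type they were -0.50 to 0.78 (Cd3g) and -0.20 to 0.11 (Gata3). For BLT1 KO minus wild-type they were -0.25 to 0.31 (Ctla4), -0.29 to 0.27 (Cd4) and -0.33 to 0.29 (Foxp3). For TSLPR KO day 12 minus day 8 they were -0.39 to 0.87 (Cd3g), -0.065 to 0.98 (Cd4) and -0.0010 to 0.47 (Gata3), and for day 8 minus day 5 -0.28 to 0.38 (Gata3).

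Counts of all genes called also moved by over 1.5 times, as at day 1 in 1 fit over all 61 skin libraries (602, against 3213), at day 2 with DESeq2 (280) or that fit (1689, against 0), and with DESeq2 in PBS (2116, against 973), TSLPR KO day 8 (1313, against 593) and day 12 (4040, against 2550).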
